A study of Mus musculus with 21 samples.

Results

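The segment described here is a 22 Mb stretch of mouse chromosome 1, from position 103000001 to 125000000 of the mm10 assembly, in which the untreated medulloblastoma cell line VDR held an unusual density of open-chromatin summits. A summit is a position of locally highest signal in a peak of an ATAC-seq library, an assay in which a transposase cuts accessible DNA. A peak can hold more than 1 summit, so counts of summits are not counts of peaks. The members are all summits inside the segment in 21 deposited lists, taken from the whole lists and from the 100000 and the 10000 summits with the highest score of each. Whole lists held 40909 segment summits of 4461959 summits in all, the 100000 highest held 24759 of 2100000, and the 10000 highest held 1729 of 210000. The members were chosen by the measured density of summits in VDR cells, so its excess there is given as a description, without a test.

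The 21 libraries fall into 7 groups of 3. The primary groups came from cerebella with an Atoh1-driven EGFP reporter, sorted for EGFP-positive cells: granule neuron progenitors (GNP) at postnatal day 7, whose titles read Ptch1GNP, hyperplasia at postnatal day 28, whose titles read PNC, and medulloblastoma tumors of unstated age. Beyond these labels the genotype of the primary animals, and the origin of the VDR line, are not given in the sources used here. VDR cells were profiled untreated, with the control reagent siNC, and with reagents that target Nfia (siNfia) or Nfib (siNfib). The reagent is called siRNA in the labels, but list names carry the prefix sh, which leaves its kind uncertain. The labels do not say whether replicates came from separate animals or cultures, so the p-values measure only the spread between these libraries, which may be technical.

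Medulloblastoma of the Sonic hedgehog group arises from granule neuron progenitors of the cerebellum, which divide in response to that ligand. Inside a responding cell the zinc-finger factor Gli2 is the main activator of the transcriptional response, and Gli2 lies in the densest part of the segment. Nearby lie En1, a homeobox gene that patterns the midbrain and cerebellum, and Bcl2, a gene whose product protects cells from apoptosis. A summit list counts sites that a peak caller found, and more DNA copies of a segment and more open chromatin per copy cannot be told apart from such lists.

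The untreated VDR lists stood apart from the other 18 libraries in their scores. The score at rank 100000 was 3.76 to 3.97 in them, 4.95 to 17.4 in the 9 siRNA-treated libraries and 9.26 to 28.9 in the 9 primary ones. Read depth, on which scores depend, is unknown, so a lower score does not by itself mark a weaker site. The 8 granule neuron progenitor marker genes together held 30.7 ± 6.43 summits in untreated VDR libraries (SD, n = 3) against 88.7 ± 1.15 in GNP and 68.0 ± 6.08 in siNC libraries. The 4 microglia and immune markers held 6 to 10 summits in untreated libraries, 5 to 8 in primary and 1 to 3 in siRNA-treated ones. In the same order, the 4 astrocyte markers held 22 to 28, 13 to 23 and 15 to 23. The 5 oligodendrocyte markers held 9 to 14, 12 to 21 and 7 to 11. Endothelial and mural markers (4 genes) held 16 to 24, 17 to 22 and 13 to 19. Purkinje and interneuron markers (4 genes) held 6 to 7, 6 to 11 and 3 to 7. Of the 4 fibroblast markers Col1a1 held 3, 5 and 9 in untreated libraries and 1 to 2 in all others, while Dcn and Lum were at 0 in untreated libraries and Col1a2 at 0, 1 and 0. Their part in the results on untreated cells was not tested.

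Promoters of the segment give a view of the DNA behind the counts. RefSeq promoter windows on GRCm38.p6, the assembly known as mm10, run from 250 bases before to 50 bases after a gene start, and 107 of them lie in the segment. Each window was searched on both strands for the NFI site TTGGCA, since Nfia and Nfib bind such letters, and for the GLI core CCACCCA, a part of the site that Gli2 binds. The NFI site was found in 19 of 107 windows, a share of 17.8%, against 14.1% of 32851 windows of all chromosomes. The core was found in 12 of 107, or 11.2%, against 9.3% of all windows. A match describes letters and is not a measured binding site. The windows below are printed 5′ to 3′ on the strand of the gene, and capitals mark matches to either motif. They are shown because they are the extremes of use across the libraries: Gli2 and Ralb held a summit in all 21 libraries, En1 in all 9 primary and in no VDR library, and the upstream window of Insig2 only in the 3 untreated VDR libraries.
Gli2, chr1:119053570-119053869, minus strand: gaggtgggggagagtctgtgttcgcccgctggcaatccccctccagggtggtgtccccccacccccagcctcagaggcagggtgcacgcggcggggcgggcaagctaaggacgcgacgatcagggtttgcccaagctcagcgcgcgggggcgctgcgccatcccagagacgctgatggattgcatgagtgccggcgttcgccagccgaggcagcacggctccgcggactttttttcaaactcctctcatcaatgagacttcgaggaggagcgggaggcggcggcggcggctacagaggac
Ralb, chr1:119504733-119505032, minus strand: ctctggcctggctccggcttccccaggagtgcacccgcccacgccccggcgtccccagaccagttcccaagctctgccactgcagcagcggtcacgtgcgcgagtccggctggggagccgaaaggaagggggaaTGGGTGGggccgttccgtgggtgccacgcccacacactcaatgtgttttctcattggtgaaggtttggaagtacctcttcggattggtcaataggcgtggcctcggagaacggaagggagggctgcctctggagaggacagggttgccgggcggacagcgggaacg
En1, chr1:120602237-120602536, plus strand: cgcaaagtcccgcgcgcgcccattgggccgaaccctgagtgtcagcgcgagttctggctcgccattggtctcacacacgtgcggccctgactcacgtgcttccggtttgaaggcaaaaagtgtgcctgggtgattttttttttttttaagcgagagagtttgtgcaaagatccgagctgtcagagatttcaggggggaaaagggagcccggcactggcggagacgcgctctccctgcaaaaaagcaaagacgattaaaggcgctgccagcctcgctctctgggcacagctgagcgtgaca
Insig2 (upstream start), chr1:121332540-121332839, minus strand: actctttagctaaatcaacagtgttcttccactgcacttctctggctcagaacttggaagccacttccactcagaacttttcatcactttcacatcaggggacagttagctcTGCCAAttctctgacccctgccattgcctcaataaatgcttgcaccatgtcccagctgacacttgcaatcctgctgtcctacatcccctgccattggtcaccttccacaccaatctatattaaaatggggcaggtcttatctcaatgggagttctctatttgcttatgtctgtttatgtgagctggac

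The Ralb window holds 1 GLI core and the upstream Insig2 window 1 NFI site, while the Gli2 and En1 windows hold neither. The upstream Insig2 window has a GC content of 46.0% and no CpG dinucleotide, against 67.3% and 28 CpG in the Gli2 window and 57.0% and 23 in the En1 window. A summit in all 3 untreated and none of the other 18 libraries was found in that 1 segment window, a class with a background of 0.00609% of all windows (2 of 32851). The class of En1, with a summit in 9 primary and 0 siRNA-treated libraries, held 1 segment window against a background of 1.01%. All 21 libraries had a summit in 18 of the 107 windows, or 16.8%, against 14.4% of all windows, and 40 windows had none in any library against 52.6%. Untreated VDR libraries had a summit in 40 to 43 segment windows, primary ones in 27 to 37 and siRNA-treated ones in 29 to 32. On the rest of chromosome 1 the order differed, with 29.7 ± 2.04% of windows in untreated VDR libraries (n = 3), 36.4 ± 0.533% in primary and 34.0 ± 0.739% in siRNA-treated ones (n = 9 each). In whole lists the segment counts were 43 to 45 in untreated libraries, 39 to 47 in primary and 31 to 38 in siRNA-treated ones. Untreated and primary libraries thus overlapped in whole lists, and the excess of segment windows over primary libraries was not seen there.

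Untreated VDR cells placed a far larger share of their chromosome 1 summits in the segment than any other group. Among the 100000 highest summits the segment took 31.8%, 37.9% and 29.95% of chromosome 1 summits in untreated replicates 1 to 3. In primary libraries the share had a lowest value of 5.09%, a median of 5.52% and a highest of 5.85%. The siRNA-treated VDR libraries, which carry the same line label, had a lowest share of 6.40%, a median of 6.84% and a highest of 7.56%. The 3 classes do not overlap, and the untreated libraries lie far above both others. The means were 33.2 ± 4.13% (SD, n = 3), 5.46 ± 0.257% (n = 9) and 6.93 ± 0.394% (n = 9). In counts, the untreated lists held 5314, 6346 and 4524 segment summits, the primary lists 323 to 401 and the siRNA-treated lists 513 to 729.

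The excess was present at each list length, and smaller among the summits of highest score. In whole lists the untreated share was 31.1%, 37.0% and 29.5%, and among the 10000 highest summits it was 17.9%, 26.1% and 16.6%. Primary means were 5.72 ± 0.254% and 5.67 ± 0.683% for these lists, and siRNA-treated means were 8.03 ± 0.339% and 7.77 ± 0.607%. Per Mb, the segment held 245 ± 41.5 summits in untreated libraries against 63.1 ± 3.02 on the rest of the chromosome, a ratio of 3.90 ± 0.743. In primary and siRNA-treated libraries the segment was sparser than the rest of the chromosome, with ratios of 0.449 ± 0.0223 and 0.579 ± 0.0354. On that rest alone, untreated libraries held 60.9 to 66.5 summits per Mb, siRNA-treated ones 43.8 to 52.2 and primary ones 34.6 to 38.4. The rest of the chromosome was thus itself denser in VDR cells. With all summits of a score of at least 10 the untreated share was 20.3 ± 5.08%, above all other groups, but the number of segment summits was not higher. Untreated libraries then held 261, 343 and 272 of them, primary libraries 327 to 622 and siRNA-treated ones 228 to 757. At that score the untreated lists were short, with 11433 to 17335 summits in all, so the larger share there comes with a smaller total.

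**Figure D1:**
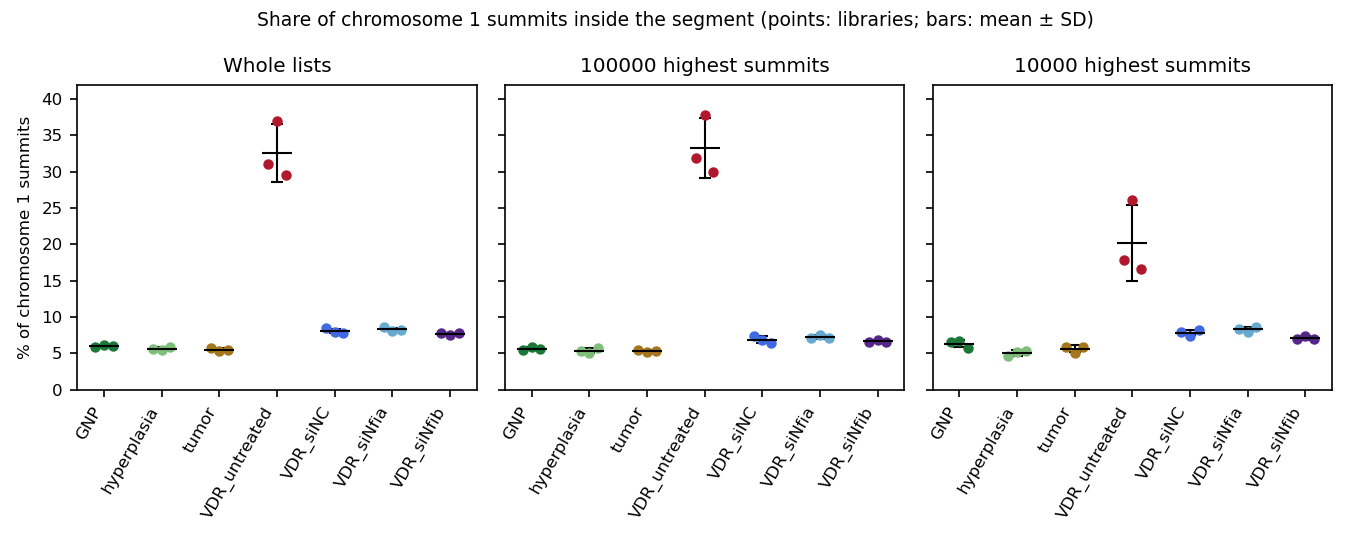
Percent of chromosome 1 summits inside the segment for each library (points, coloured by group) with the mean and SD of 3 libraries (black), in whole lists, the 100000 highest and the 10000 highest summits. The 3 untreated VDR libraries lie at 29.95% to 37.9% in the middle panel, above all others, and at 16.6% to 26.1% in the right panel.

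Along the segment the untreated density was uneven. In 1 Mb bins, the 3 adjoining bins that start at 118, 119 and 120 Mb held means of 854, 949 and 758 untreated summits, and were the 3 fullest of 2537 bins on all chromosomes. The per-library counts of the fullest bin were 888, 1124 and 836, while the 18 other libraries held 66 to 150. A lower crest lay at 105 and 106 Mb with means of 406 and 441. The bins from 107 to 117 Mb held means between 39.7 and 115. The next fullest bins elsewhere were on chromosome 17, with 599 and 509, and on chromosome 8, with 490.

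All 22 segment bins had every untreated library above all 18 others, as did 46 of 171 bins on the rest of chromosome 1, against a background of 7.49% of all bins. At a score of at least 10 no bin of the segment or of any chromosome did. Untreated lists then held 11433 to 17335 summits and the other 18 held 40587 to 164171, so this 0 does not describe the segment. Among the 10000 highest summits 8 of 17 segment bins did, against 4 of 152 on the rest of the chromosome and a background of 1.77%. The bin profile was nearly the same in the 3 untreated libraries, with Pearson's r between 0.996 and 0.998 over 22 bins. Across the same bins the untreated mean had r = 0.943 and Spearman's rho = 0.599 with the primary mean, and r = 0.855 and rho = 0.682 with the siRNA-treated mean. These are descriptions, since the bins share their gene content and base composition.

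The ends of the segment are not alike. At the lower end the bin starting at 102 Mb, just outside, held 57, 80 and 43 untreated summits and the bin at 103 Mb, just inside, 109, 147 and 98. Untreated counts were already 103, 94 and 87 at 98 Mb, where primary libraries held 9 to 14, so the rise begins outside the segment. At the upper end the count fell within Dpp10. The 200 kb bin at 124.0 Mb held 56, 75 and 33 untreated summits, the next held 14, 21 and 13, and the one at 124.4 Mb held 3, 0 and 1. The 1 Mb bin at 124 Mb held 76, 102 and 50 and the bin at 125 Mb, just outside, 40, 35 and 42, against 21 to 34 in siRNA-treated libraries. A short gap lay within the crest: the 200 kb bin at 119.6 Mb held 44, 57 and 36 untreated summits between neighbours of 232, 273 and 209 and of 170, 212 and 155.

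**Figure D2:**
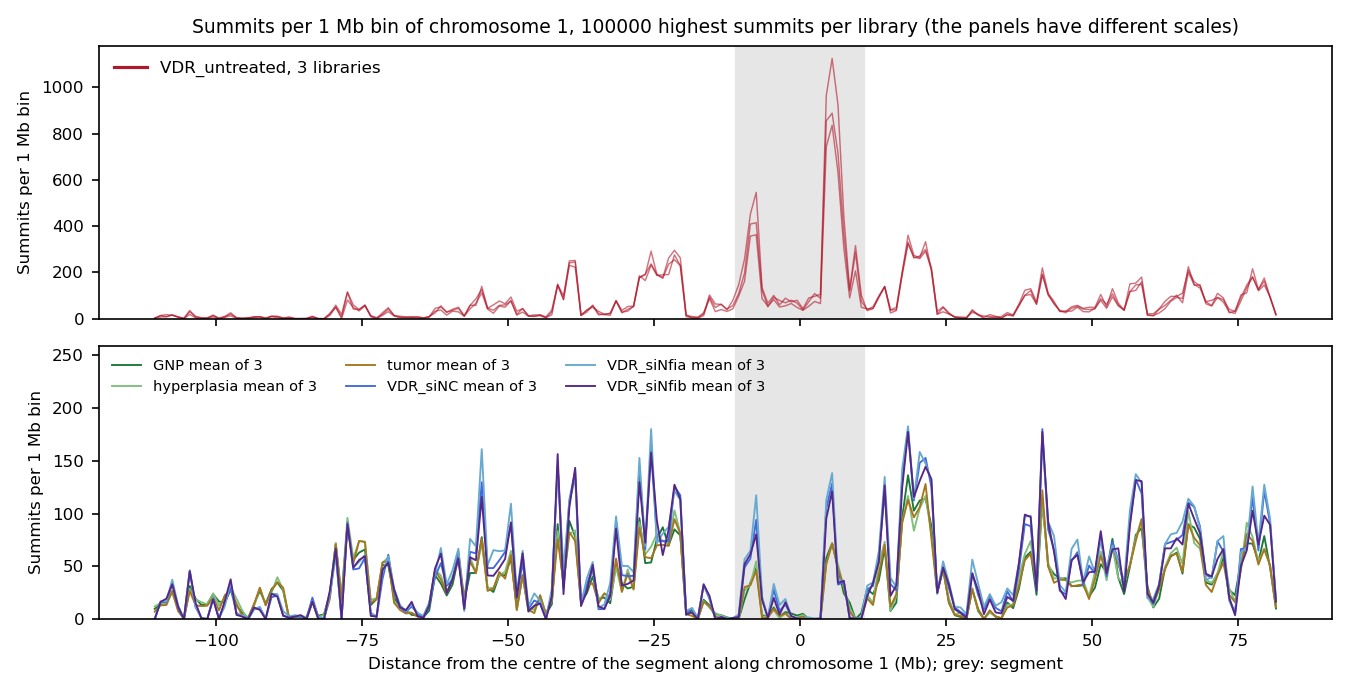
Summits per 1 Mb bin of chromosome 1 among the 100000 highest summits, against the distance in Mb from the centre of the segment (grey), for the 3 untreated VDR libraries (top) and for the mean of 3 libraries in each other group (bottom, on a different scale). The untreated lines reach 1124 in the fullest bin, whereas siRNA-treated and primary libraries do not exceed 150 there.

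Gli2 and its neighbours formed the crest. Gli2 (chr1:118834061-119054405) held 340, 392 and 330 summits in untreated VDR libraries within its gene body. Primary libraries held 41 to 53 and siRNA-treated libraries 72 to 99. The 3 classes are ordered without overlap, and the lowest untreated library held 3.33 times the highest other one. Per length, Gli2 held 16.1 summits per 10 kb in untreated cells, 3.802 in siRNA-treated and 2.12 in primary cells. Only Inhbb (19.2), Dbi (16.6) and Tmem177 (16.4) were denser in untreated cells among the 52 protein-coding genes of the segment. Of 21 Hedgehog pathway genes across the genome, Gli2 was the 1 gene with every untreated library above all others, and also the 1 with every siRNA-treated library above every primary one. Against backgrounds of 3.47% and 2.68% of all genes, 1 of 21 is not a result about the pathway. Without Gli2 the summed count over the list was 107 ± 12.5 in untreated VDR cells, below 158 ± 4.16 in GNP, 142 ± 8.72 in hyperplasia, 145 ± 4.04 in siNC and 173 ± 10.1 in tumor cells (n = 3 each).

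Gli2 and 6 listed neighbours, 7 of 7 genes, held more summits in each untreated library than in any other library. Over all 52 genes this was so for 39, against a background of 3.47% of 21883 genes. Clasp1, which encodes a microtubule plus-end protein, held 172, 209 and 147 untreated summits against 7 to 14 in primary and 16 to 21 in siRNA-treated libraries. Tfcp2l1, a transcription factor gene of pluripotent and epithelial cells, held 77, 74 and 62 against 1 to 3 and 1 to 4. The untreated mean was 16.0 times the primary mean for Clasp1 and 39.9 times for Tfcp2l1. Ralb, a small GTPase gene, held 40, 50 and 43 against 0 to 2 and 1 to 5. Inhbb, which encodes a subunit of activin and inhibin, held 13, 14 and 12 against 3 to 5 and 4 to 6. The RNA-binding genes Tsn and Nifk held 6 to 10 and 9 to 13 untreated summits, and at most 3 and 2 elsewhere.

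**Figure D3:**
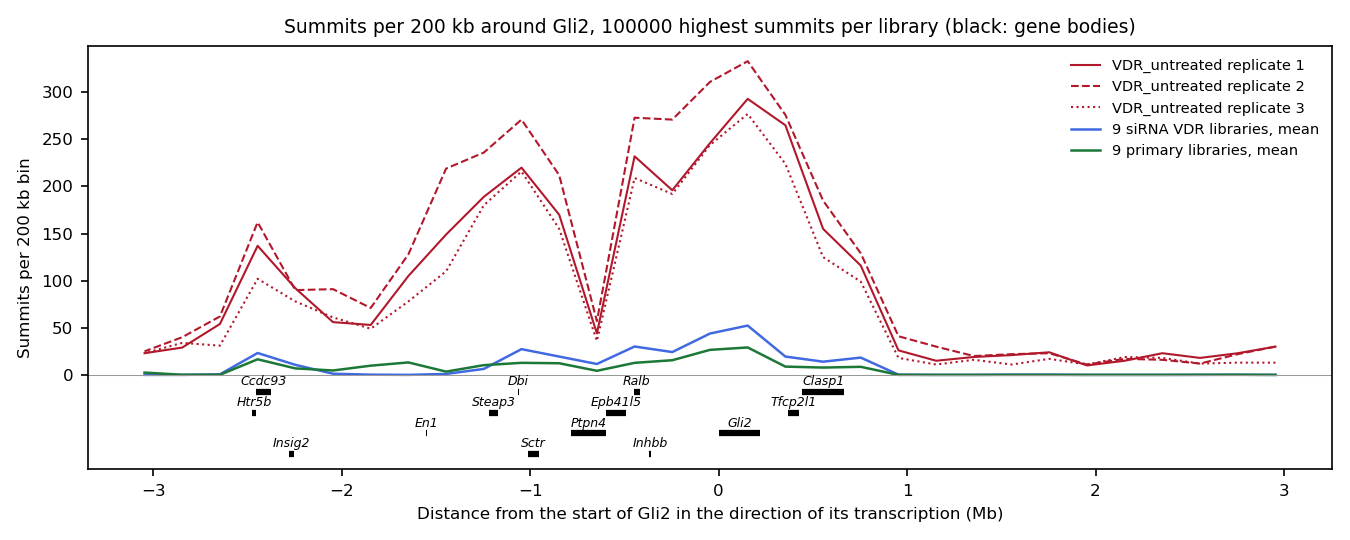
Summits per 200 kb bin among the 100000 highest summits, against the distance in Mb from the start of Gli2 in its direction of transcription, for each untreated VDR library (red), the mean of 9 siRNA-treated (blue) and of 9 primary libraries (green), with gene bodies in black. The untreated lines peak at 277 to 333 in the bin within Gli2 and dip to 36 to 57 in 1 bin upstream of it.

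En1 departed from its neighbours in the count over its short gene body. The gene body (chr1:120602487-120607991) held 3 to 7 summits in primary libraries and 0 in all 9 siRNA-treated libraries. Untreated VDR libraries held 7, 10 and 2, so they span the primary range while the siRNA-treated ones are empty. The DNA around the gene did show the untreated excess. Of the 500 bp regions assigned to En1, untreated libraries occupied 68, 85 and 48, primary ones 6 to 11 and siRNA-treated ones 0 to 1. En1 was the 1 segment gene of 52 with every primary library above every siRNA-treated one, against a background of 4.57%. The synaptic protein gene C1ql2 nearby also held 0 in all 9 siRNA-treated libraries, with 0 to 3 in primary and 3, 1 and 4 in untreated ones. Marco, a scavenger receptor gene of macrophages, held 0 in all siRNA-treated libraries, 0 to 2 in primary and 25, 44 and 26 in untreated ones. The untreated libraries thus had summits in all 3 genes where siRNA-treated cells of the same line had none. Steap3, an iron reductase gene, held 54, 70 and 58 untreated summits against 2 to 4 in primary and 1 to 5 in siRNA-treated libraries. Of the 4 microglia and immune markers, which summed to 6 to 10 summits in untreated and 1 to 3 in siRNA-treated libraries, Csf1r held 1 to 2 and Aif1 0 to 2 in untreated libraries and both were at 0 in siRNA-treated ones. Irf8 held 9, 2 and 1 in untreated, 0 to 2 in siRNA-treated and 2 to 4 in primary libraries, and Ptprc 0, 1 and 3 in untreated, 1 in each siRNA-treated and 2 to 5 in primary ones. The part of such cells in the Marco count was not tested.

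A list of cell survival and death genes has members in and beside the second crest, which also holds Rnf152, Zcchc2, Relch and Kdsr from outside that list. Bcl2 held 83, 112 and 67 untreated summits against 4 to 8 in primary and 11 to 25 in siRNA-treated libraries. Phlpp1, a phosphatase gene that acts on the kinase AKT, held 69, 87 and 63 against 9 to 14 and 15 to 28. In both genes siRNA-treated libraries lie between the primary and the untreated ones, with no overlap. Tnfrsf11a, which encodes the receptor RANK, held 45, 61 and 34 against 1 to 3 and 0 to 5. Of the 10 listed genes 7 had every untreated library above the other 18. The list also holds Pign, a gene of GPI-anchor synthesis, and 6 serpin genes, most of them protease inhibitors. Serpinb8 was unlike the others, with 8 to 11 summits in siRNA-treated libraries, 9, 7 and 10 in untreated and 1 to 2 in primary ones.

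Long neuronal genes that were nearly empty elsewhere carried many untreated summits. Dpp10, which encodes a partner of Kv4 potassium channels, held 271, 309 and 178 untreated summits against 0 to 6 in primary and 0 to 2 in siRNA-treated libraries. Cntnap5a, a neurexin-family adhesion gene, held 107, 110 and 61 against 0 to 1 and 0 to 3. These counts rest on length: per 10 kb Dpp10 held 1.67 untreated summits and Cntnap5a 1.03, far below the 16.1 of Gli2. The serotonin receptor gene Htr5b held 9, 16 and 6 against 3 to 4 in primary and 1 to 3 in siRNA-treated libraries. Of the 3 cadherin genes Cdh20 held 70, 92 and 65 against 10 to 21 and 25 to 35, and Cdh19 held 3 to 4 against at most 2. Cdh7 overlapped, with 10 to 15 untreated summits and up to 10 in siRNA-treated libraries.

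The remaining lists are of lipid and sterol genes and of cytoskeleton and trafficking genes. The 3 lipid and sterol genes all had every untreated library above the others. Insig2, which retains the sterol sensor complex in the endoplasmic reticulum, held 18, 20 and 15 against 2 to 5 in primary and 4 to 7 in siRNA-treated libraries. Dbi, an acyl-CoA-binding protein gene, held 12 to 15 against 3 to 5 and 5 to 11, and Kdsr, a sphingolipid enzyme gene, 17 to 24 against 1 to 3 and 3 to 6. Among 4 cytoskeleton and trafficking genes Epb41l5, Ptpn4 and Ccdc93 had untreated libraries above the others and Vps4b did not. All 9 siRNA-treated libraries were above all 9 primary ones in 11 of 52 genes, against a background of 2.68%: Cdh20, Pign, Relch, Phlpp1, Bcl2, Serpinb8, Clasp1, Gli2, Epb41l5, Sctr and 3110009E18Rik. In 1 Mb bins this order held for 9 of 22 segment bins, against 60 of 171 on the rest of the chromosome and a background of 14.9%. The reverse order held for 2 of 22 against 21%.

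**Figure D4:**
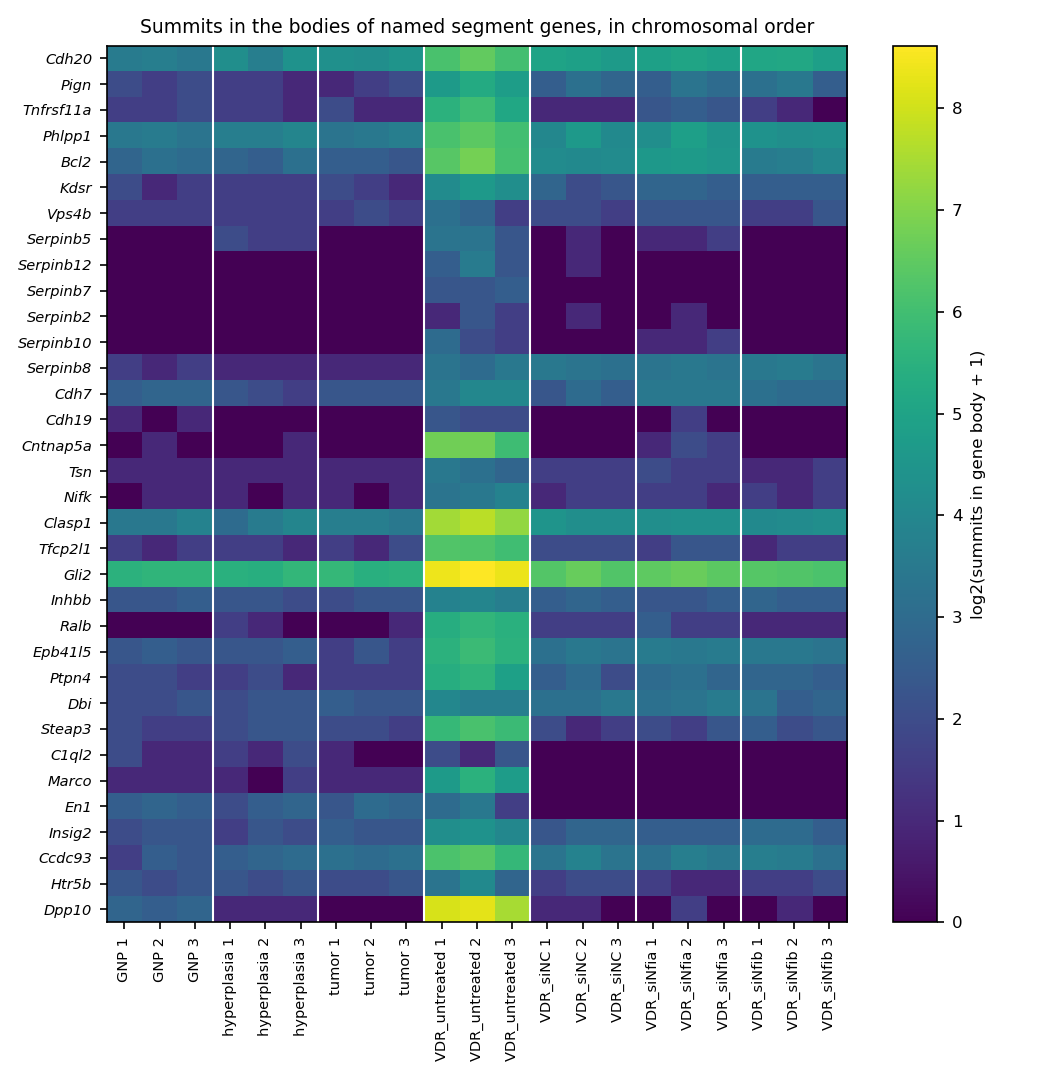
Summits in the bodies of the listed segment genes, as log2(count + 1), with genes in chromosomal order and 1 column for each library. The 3 untreated VDR columns are bright for nearly all genes, and En1, Marco and C1ql2 are at 0 in all 9 siRNA-treated columns.

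Most untreated segment summits had a low score, lay more than 1 kb from a gene end and had no summit within 250 bp in both other replicates. A gene end means here either boundary of a gene, so the start of the gene is included. A summit in at least 1 other replicate lay near 54.7%, 50.4% and 58.8% of them in replicates 1 to 3. A summit in both lay near 21.6 ± 3.44% of them, against 22.9 ± 0.926% on the rest of chromosome 1 (n = 3 each). On that rest a summit in at least 1 other replicate lay near 42.1 ± 2.03%. Agreement with both other replicates was thus low in both places. Summits were denser in the segment, which by itself raises the share with a neighbour within 250 bp. No correction for density was made, so agreement in the 2 places cannot be compared. Within 1 kb of a protein-coding gene end lay 3.28 ± 0.263% of untreated segment summits (n = 3), against 24.3 ± 0.897% in primary and 19.01 ± 1.87% in siRNA-treated libraries (n = 9 each). On the rest of chromosome 1 the untreated value was 13.9 ± 0.761%. The median untreated segment score was 4.71 ± 0.159, the same as on the rest of the chromosome. Neighbouring untreated summits lay a median of 1152 ± 164 bp apart in the segment and 3379 ± 143 bp apart on the rest.

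The share found in other replicates differed with score. Untreated segment summits of a score of at least 10 had a summit within 250 bp in both other untreated replicates in 84.7%, 68.8% and 87.9% of cases for replicates 1 to 3. Below that score the shares were 18.6%, 15.2% and 20.9%, and this class held 5053, 6003 and 4252 summits. The rest of chromosome 1 was split alike, with 90.9%, 90.9% and 86.3% at the higher score and 13.8%, 16.5% and 14.1% below it. Segment summits of higher score also lay near a summit of another group in 93.9%, 84.3% and 94.5% of cases, and those below 10 in 31.1%, 30.4% and 34.5%. On the rest of chromosome 1 these shares were 99.9%, 99.6% and 100%, and 56.2%, 55.7% and 59.2%. In the other direction, 64.5 ± 3.57% of primary segment summits and 61.2 ± 5.06% of siRNA-treated ones had a summit near them in all 3 untreated libraries. On the rest of chromosome 1 these shares were 35.2 ± 1.17% and 34.1 ± 1.76%. Most segment summits of the other groups thus had untreated summits near them, and the untreated lists held many further ones of low score. The higher untreated density of the segment raises such shares by itself, and no correction for it was made.

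**Figure D5:**
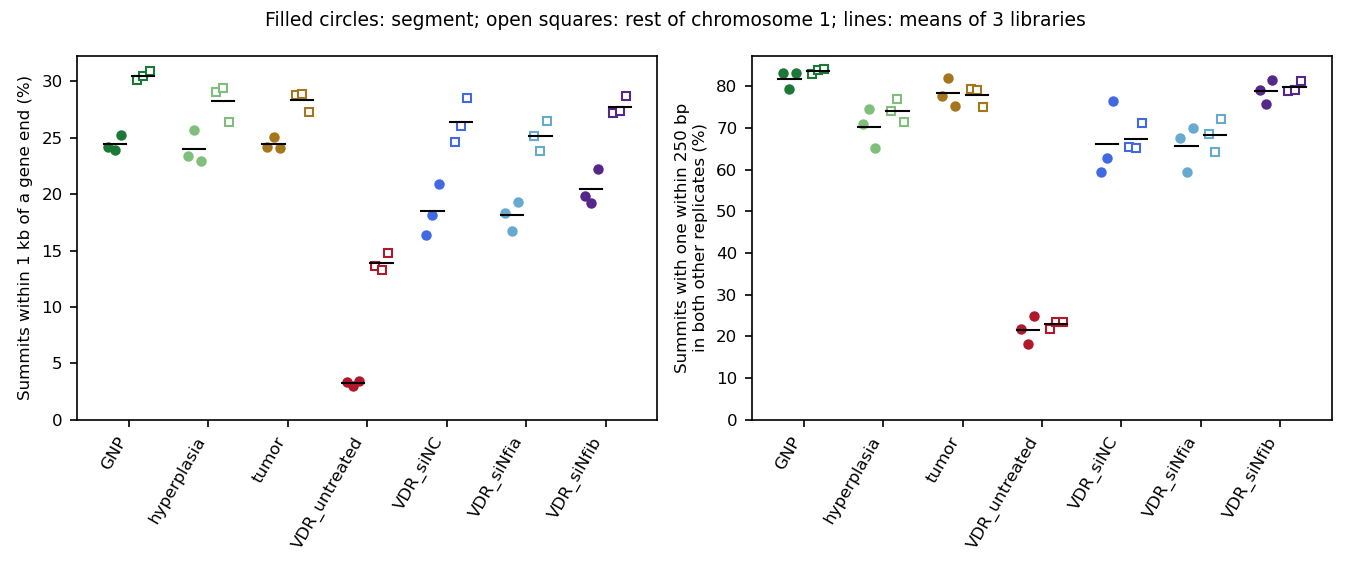
Percent of summits within 1 kb of a gene end, which is either boundary of a gene (left), and percent with a summit within 250 bp in both other replicates of the group (right), for the segment (filled circles) and the rest of chromosome 1 (open squares), with the mean of 3 libraries as a line. Untreated VDR libraries lie at 2.98% to 3.47% in the segment on the left, below all other libraries.

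Merged into 500 bp regions, the summits gave 8607 segment regions of 271215 in all. The segment held 493 of the 963 regions that were occupied in all 3 untreated and none of the other 18 libraries, a class with a background of 0.355%. In at least 1 untreated library and none of the 18 others, 7590 segment regions were occupied, or 88.2% of them, against a background of 40.4%. Regions of the first class lay in Ralb (chr1:119479261-119479760), in Gli2 (chr1:118847884-118848383 and chr1:118868137-118868636), in Clasp1 (chr1:118510145-118510644) and near Ddx18 (chr1:121545954-121546453). All lay in gene bodies or between genes, more than 1 kb from a gene end. In 1 untreated library alone 5443 segment regions were occupied, or 63.2% of them, against a background of 37.0%.

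A small core of the segment was open in all groups. In all 18 primary and siRNA-treated libraries 94 segment regions were occupied, or 1.09% (background 8.89%). Of these, 90 were also occupied in the 3 untreated libraries, or 1.05% of segment regions (background 5.47% for all 21). Since 88.2% of segment regions were occupied in untreated libraries only, the segment shares here are lowered and not comparable with the backgrounds. The highest-ranked of the 94 lay 420 bp outside the start of Phlpp1 (chr1:106171199-106171698) and 21294 bp from Cdh20 (chr1:104746796-104747295). Others lay 39 bp from the higher coordinate of Kdsr, 37 bp from the lower coordinate of Zcchc2 and 75 bp from the higher coordinate of Ptpn4. The 24 regions occupied in 9 siRNA-treated and 0 primary libraries (0.279%, background 0.487%) were led by one 19196 bp from Serpinb2 (chr1:107481446-107481945) and one in Clasp1 (chr1:118458176-118458675). Both were occupied in all 3 untreated libraries too. The 18 regions of 9 primary and 0 siRNA-treated libraries (0.209%, background 1.58%) included one 47330 bp from En1 (chr1:120655071-120655570), which no untreated library occupied. Another lay in Htr5b, 791 bp from its higher coordinate (chr1:121528271-121528770), and 2 untreated libraries occupied it.

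Knockdown of the NFI factors asked whether Nfia or Nfib shape this chromatin, and the contrast did not enter the choice of the segment. No segment bin or gene passed the test in either knockdown against siNC. The segment share was 7.40%, 6.84% and 6.40% in siNC libraries, 7.12%, 7.56% and 7.12% in siNfia libraries and 6.56%, 6.83% and 6.58% in siNfib libraries. The siNC range spans all siNfib values, and all siNfia values lie above the siNC median. The difference between the 3 groups did not pass an exact two-sided permutation test (p = 0.139, adjusted p = 0.446 over 16 tests). The difference was 0.386 percentage points for siNfia and -0.223 for siNfib against siNC, and 3 libraries against 3 cannot give a two-sided exact p below 0.1.

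In limma fits on log2(count + 1), 0 of 11 testable segment bins were called for siNfia against siNC at an adjusted p below 0.05, with a background of 1.2% of 2166 bins. At an unadjusted p below 0.05 there were 3, against 17.1% of all bins. For siNfib against siNC 0 of 11 were called against a background of 3.09%, and 3 had an unadjusted p below 0.05 against 21.7%. Of 26 testable segment genes 0 were called in either contrast, with backgrounds of 0.0609% and 1.37%, and 2 and 7 had an unadjusted p below 0.05 against 11.8% and 16.8%. On simulated counts the gene tests recovered 15.9% of 2-fold and 60.5% of 4-fold changes for siNfia (6562 genes). For siNfib they recovered 12.6% and 62.0% (6577 genes). The bin tests recovered 81.0% and 75.0% of 2-fold changes (2161 and 2169 bins). The spread of the simulated counts was fixed in advance, not estimated from these libraries. The recovered shares therefore do not measure how many real changes would be missed here. The lowest unadjusted p for siNfib belonged to Tmem177, a mitochondrial membrane protein gene (log2 change -0.66, SE 0.188, limma adjusted p = 0.154). Bcl2 had a log2 change of -0.57 (SE 0.208, limma adjusted p = 0.246). Without siNC replicate 1 the siNfia contrast called 1 segment bin, and without siNC replicate 3 the siNfib contrast called 3.

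The knockdowns differed from each other in 3 of 11 segment bins, all lower with siNfib than with siNfia, against a background of 9.83% called in either direction and 5.72% lower. This contrast was added after the data were seen, and it shares its libraries with those above. The bin at 106 Mb, which holds Phlpp1 and Bcl2, held 114, 132 and 106 summits in siNfia libraries and 76, 80 and 85 in siNfib libraries. The siNC libraries held 104, 99 and 79, all below the lowest siNfia library and overlapping the siNfib ones. The log2 change was -0.54 (SE 0.0979, limma adjusted p = 0.00324). The bin at 110 Mb, which holds most of Cdh7 and all of Cdh19, held 14, 17 and 9 with siNfia and 5, 4 and 4 with siNfib (log2 change -1.39, SE 0.247, limma adjusted p = 0.0029). The bin at 109 Mb, which holds only the lower end of Cdh7, held 35, 35 and 30 against 17, 26 and 17 (log2 change -0.73, SE 0.171, limma adjusted p = 0.0132). Leaving out siNfia replicate 1 or 2 or siNfib replicate 1 or 3 took that last call away (adjusted p from 0.056 to 0.0748). At a score of at least 10 the log2 changes of the 106 Mb and 109 Mb bins turned to 0.25 and 0.11 and 0 segment bins were called, and in whole lists the 106 Mb change was 0.08 with 1 bin called. Of 26 genes 0 passed this contrast (background 2.16%, 6 with an unadjusted p below 0.05 against 18.2%). Tnfrsf11a came nearest (log2 change -0.77, SE 0.156, limma adjusted p = 0.0543), and 1 gene was called without siNfia replicate 2.

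Region counts gave a like picture. Of 807 segment regions occupied in either group, 12 were gained and 3 lost with siNfia, or 1.49% and 0.372% against backgrounds of 0.973% and 0.856%. Of 658 with siNfib, 21 were gained and 8 lost, or 3.19% and 1.22% against 3.38% and 2.19%. A gained region is occupied in 3 of 3 libraries of the treated group and 0 of 3 siNC libraries.

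The stages from progenitor to tumor asked how the same segment changes as a tumor forms in tissue. Its share of chromosome 1 summits was 5.53%, 5.85% and 5.57% in GNP, 5.28%, 5.09% and 5.76% in hyperplasia and 5.52%, 5.17% and 5.37% in tumor libraries. Hyperplasia spans nearly the range of both other groups. The difference did not pass an exact two-sided permutation test (p = 0.321, adjusted p = 0.483 over 16 tests). With each peak counted once in place of each summit the test did pass (adjusted p = 0.0286). The share was then 5.81%, 6.20% and 5.94% in GNP and 5.44%, 5.45% and 5.67% in hyperplasia libraries. In tumor libraries it was 5.37%, 5.17% and 5.14%, so it fell along the stages without overlap. Summits per peak in the segment were 1.57 in GNP, 1.503 in hyperplasia and 1.63 in tumor libraries (exact permutation p = 0.00357, the smallest that 280 partitions can give, adjusted p = 0.0571).

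Within the segment single bins were called between the stages. The bin at 104 Mb, which holds Cdh20, rose from 18, 21 and 17 summits in GNP to 30, 21 and 30 in hyperplasia and 30, 28 and 33 in tumor libraries. Its log2 change from GNP was 0.50 (SE 0.128, limma adjusted p = 0.00809) in hyperplasia and 0.67 (SE 0.128, limma adjusted p = 0.000448) in tumor. It was the 1 bin of 11 called in hyperplasia, against a background of 20% in either direction and 11.5% higher, and the call was lost without GNP replicate 3 (adjusted p = 0.0692) or hyperplasia replicate 1 (adjusted p = 0.069). It was also lost in whole lists (adjusted p = 0.190), at a score of at least 10 (0.863), unfiltered (0.0517) and in a fit that also held the untreated VDR libraries (0.143), and at the last 3 settings every called segment bin was lower in hyperplasia. The count of called hyperplasia bins was 0 without either library and 2 without GNP replicate 1 or hyperplasia replicate 3.

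In tumor libraries 4 of 11 bins were called, 2 higher and 2 lower, against a background of 23.4%, with 12.4% higher and 10.9% lower. The bin at 122 Mb, between Ddx18 and Dpp10 and without a protein-coding gene, fell from 13, 18 and 16 in GNP to 8, 6 and 7 (log2 change -1.06, SE 0.169, limma adjusted p = 7.17e-05). It lay between these in hyperplasia, at 10, 11 and 12, and the 3 stages do not overlap. The bin at 121 Mb, which holds Insig2, Ccdc93, Htr5b and Ddx18, rose from 23, 27 and 23 to 30, 28 and 35 (log2 change 0.33, SE 0.108, limma adjusted p = 0.0256). The gene-free bin at 114 Mb fell from 5, 5 and 5 to 5, 2 and 0 (log2 change -1.19, SE 0.401, limma adjusted p = 0.0319). The 121 Mb call was lost without GNP replicate 1 or 3 or tumor replicate 3 (adjusted p from 0.105 to 0.128). The 114 Mb call was lost without any GNP library or without tumor replicate 2 or 3 (adjusted p from 0.0527 to 0.227), and without tumor replicate 3 its log2 change was -0.50. In whole lists the tumor calls at 104 Mb, 114 Mb and 121 Mb were lost (adjusted p from 0.0772 to 0.982). In a fit that also held the untreated VDR libraries those at 114 Mb and 121 Mb were lost (adjusted p of 0.139 and 0.162), and the 122 Mb call was kept under all 12 alternatives run. The split was 0 higher and 5 lower in whole lists, 0 and 4 at a score of at least 10 and 1 and 5 unfiltered, so the higher calls depend on the list and the filter used. The count of called tumor bins was 2 without GNP replicate 1, GNP replicate 3 or tumor replicate 3.

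Phlpp1 and Ccdc93 passed the stage tests. Phlpp1 rose from 12, 12 and 11 occupied regions in GNP to 16, 16 and 17 in hyperplasia (log2 change 0.45, SE 0.0424, limma adjusted p = 0.00225) and held 12, 12 and 12 in tumor libraries. It was 1 of 18 testable segment genes, against a background of 10.5% in either direction and 6.05% higher. Ccdc93, a gene of the endosomal CCC complex, rose from 5, 7 and 6 in GNP to 10, 11 and 10 in tumor (log2 change 0.70, SE 0.143, limma adjusted p = 0.0311) with 7, 8 and 10 in hyperplasia. It too was 1 of 18, against a background of 8.65% in either direction and 5.32% higher. The Ccdc93 call was lost without GNP replicate 1 or 3 or any tumor library (adjusted p from 0.0726 to 0.0894). In whole lists its log2 change was -0.03, and that of Phlpp1 was -0.02 at a score of at least 10. In a fit that also held the untreated VDR libraries neither gene passed (adjusted p = 0.0903 for Ccdc93 and 0.127 for Phlpp1). Gli2, whose occupied regions numbered 42, 45 and 42 in GNP, 38, 34 and 43 in hyperplasia and 46, 39 and 43 in tumor libraries, passed neither test. Gli2 held the most occupied regions of all segment genes both in primary (mean 41.3) and in siRNA-treated libraries (64.9), followed in both by Cdh20 (16.2 and 32.7).

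Regions of the segment were gained in both stages at about the rate of the genome, and lost in tumor at a higher one. From GNP to hyperplasia 18 of 402 occupied regions were gained and 19 lost, or 4.48% and 4.73% against backgrounds of 4.72% and 4.42%. From GNP to tumor 15 of 374 were gained and 28 lost, or 4.01% and 7.49% against 4.74% and 4.35%. These shares were not tested against the background. Both stage contrasts share the GNP libraries, as both knockdown contrasts share the siNC libraries.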

How the data were processed

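Omni-ATAC libraries were deposited by the authors as 1 summit list per library on mm10. The score column was read as -log10 of a p or q value from the authors' peak caller, and the sources do not state which or at what threshold. Per the submitters' processing notes the tools were MACS2, Picard and Bowtie2, whose versions are not given in the sources used here. Replicates were deposited separately. Scores depend on library depth, which is unknown. They ranked summits within a list, and a fixed minimum of 10 across lists was an alternative. The 100000 highest summits of each list were used unless stated. Kept summits were merged into 500 bp regions, assigned to a gene body or the nearest one within 100 kb (RefSeq GRCm38.p6).

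Shares were compared with exact permutation tests (SciPy 1.17.1), with Benjamini-Hochberg adjustment over 16 tests. Bin and gene counts were tested on log2(count + 1) with limma 3.58.1 (R 4.3.3, trended variance, mean of 3 or more), adjusted over all bins or genes, separately in the 9 siRNA-treated and the 9 primary libraries, and called at an adjusted p below 0.05. Each gene count given in the text is of summits in the gene body, except where regions are named and in these gene tests, which count occupied regions. The scripts were tested on simulated data. The named genes are the members of role lists, the genes with the most occupied regions and the called genes. The segment, lists and tests were chosen with earlier results of these data known. Untreated VDR libraries chose the segment, so the planned test of siNC against untreated cells is not given. Alternatives were other list lengths, a score minimum, other bin and region sizes, filters, pseudocounts, fits of 12 libraries and leaving out each library.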

Additional observations from a re-analysis of the deposited data

How the results depend on the processing

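Of 610 alternative values over 48 results, 481 kept their direction and their side of the threshold or stayed within their tolerance. The cause of the changes was not tested. For the untreated share, the 10000 highest summits gave 20.2%, a score of at least 10 gave 20.3% and summits per Mb a ratio of 3.90. The siRNA-treated minus primary share was 2.31 points in whole lists, 2.10 among the 10000 highest and 0.130 as a ratio, against 1.47. The stage difference in share was 0.760 points with each peak counted once (adjusted p = 0.0286, exact permutation test). Tumor minus hyperplasia turned to 0.578 points among the 10000 highest summits, against -0.0182. Segment bins with untreated libraries above the 18 others numbered 8 among the 10000 highest and 0 at a score of at least 10, and those with siRNA-treated above primary numbered 0 at that score. List lengths differ between groups at that score, which limits both counts of 0.

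Called segment bins numbered 1 for siNfib against siNC in 500 kb bins. For siNfib against siNfia there was 1 in whole lists, 1 among the 10000 highest, 1 with 12 libraries and 0 at a score of at least 10. For hyperplasia there were 0 in whole lists, 6 at a score of at least 10, 2 unfiltered and 2 with 12 libraries, all lower in hyperplasia, and 3 in 500 kb bins, and for tumor 1 among the 10000 highest. Called genes numbered 1 for siNfib against siNC with 1000 bp regions, and 1 each for siNfib against siNfia with 12 libraries and 1000 bp regions. For hyperplasia they numbered 0 in whole lists, 0 at a score of at least 10, and 2 each with a mean of 1 or more, 12 libraries or 1000 bp regions, and for tumor 0 among the 10000 highest and 0 at a score of at least 10. Single features that reversed were the 106 Mb bin (0.0795 in whole lists, 0.252 at a score of at least 10) and the 109 Mb bin (0.110 at that score) for siNfib against siNfia, Phlpp1 (-0.0183 at that score) and Ccdc93 (-0.0275 in whole lists).

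Segment regions gained with siNfia numbered 4 among the 10000 highest and 6 at a score of at least 10, and lost 1 at 1000 bp, 6 in whole lists and 1 among the 10000 highest. With siNfib 43 were gained in whole lists and 3 among the 10000 highest, and 5 lost at 1000 bp and 1 at a score of at least 10. In hyperplasia 28, 1 and 11 were gained and 43, 4 and 42 lost in whole lists, among the 10000 highest and at a score of at least 10. In tumor 2 were gained among the 10000 highest and 7 at a score of at least 10, and 48 lost in whole lists and 3 among the 10000 highest.

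Leaving out 1 library gave siNfib minus siNC share differences from -0.461 to 0.0373 points, positive without siNC replicate 1, and tumor minus hyperplasia from -0.162 to 0.174, positive without hyperplasia replicate 3 (0.174) and tumor replicate 2 (0.0732). Called bins ranged from 0 to 1 for siNfia, 0 to 3 for siNfib, 2 to 3 for siNfib against siNfia, 0 to 2 for hyperplasia and 2 to 4 for tumor, and called genes from 0 to 1 for siNfib against siNfia, 1 to 2 for hyperplasia and 0 to 1 for tumor. With fewer libraries to satisfy, gained regions ranged from 13 to 27 with siNfia, 24 to 30 with siNfib, 20 to 29 in hyperplasia and 16 to 19 in tumor, and lost ones from 3 to 7, 11 to 20, 22 to 29 and 30 to 37.

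Correlations of same-numbered libraries ranged from -0.0456 to 0.0695 among primary groups and from 0.0175 to 0.148 among siRNA-treated groups. Correlations of differently numbered libraries are not given beside them, so pairing by replicate number was neither shown nor excluded. With a replicate block 4 segment bins were called for siNfib against siNfia, 1 for hyperplasia and 4 for tumor, and 0 for both knockdowns against siNC. The number of called segment genes did not change. Over all genes the calls fell from 4 to 0 for siNfia and from 90 to 1 for siNfib against siNC. They fell from 142 to 0 for siNfib against siNfia, from 719 to 379 for hyperplasia and from 591 to 343 for tumor. Depth is unknown, so summits of low score cannot be separated from uncalled ones.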
